A study of Mus musculus with 11 samples.

Results

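Malat1, Neat1, Miat, Snhg11, Snhg14 and Dlx6os1 are long noncoding RNA genes that are well represented in poly(A) RNA of the mouse brain. They were taken by symbol from the GENCODE M21 annotation and matched to Ensembl gene identifiers. All 6 had counts in every library and are 6 of the 15353 genes kept, in a table of 52550 genes. They were followed across 11 libraries and set against the difference between long and short transcripts that separates these libraries.

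The libraries hold poly(A) RNA of the shell of the nucleus accumbens, in the ventral striatum, from mice aged 8 weeks on a CBA/C57BL6J/129svEmx mixed background. The series concerns reduced signalling through Rarβ, a retinoic acid receptor, in mice with the R6/1 transgene, a piece of the human huntingtin gene with a lengthened CAG repeat. The labels give every library the code of 1 mouse and no genotype, so no groups were formed, and nothing below separates genotype from other differences between mice. A further sample, without the transgene and with both Rarβ copies, failed the submitters' quality control and is not analysed here.

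Long noncoding RNAs are transcripts that are not known to be translated. Many are spliced like messenger RNAs, whereas the longest transcripts of Malat1 and Neat1 have 1 exon. Several long noncoding RNAs stay in the nucleus. Malat1 gathers in nuclear speckles, which store splicing factors, Neat1 is the scaffold of paraspeckles, and Miat forms foci of its own in neurons. Others are known for what they carry or face: Snhg11 and Snhg14 hold small nucleolar RNAs in their introns, the far part of Snhg14 runs antisense to Ube3a and silences the paternal copy of it in neurons, and Dlx6os1 lies opposite Dlx6, a homeobox gene of GABAergic neurons.

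The sequences below show features that set these RNAs apart as molecules and that the comparisons by sequence further down refer to. They are copied from the GENCODE M21 transcripts (GRCm38), written as DNA, 5′ to 3′ on the minus strand of each chromosome, which is the strand of the RNA. In Malat1 (chr19:5795952-5796029) and Neat1 (chr19:5824708-5824748), capitals mark the A-rich tract that closes the triple helix at the mature 3′ end. In Snhg14 (chr7:59975476-59975532), capitals mark its longest run of A. In Miat (chr5:112217301-112217450), capitals mark 3 of its 6 copies of TACTAAC, the letters of an intron branch point, which bind the splicing factor SF1.
Malat1: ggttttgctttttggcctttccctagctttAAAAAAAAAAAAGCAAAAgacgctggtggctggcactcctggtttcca
Neat1: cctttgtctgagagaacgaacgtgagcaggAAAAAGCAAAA
Snhg14: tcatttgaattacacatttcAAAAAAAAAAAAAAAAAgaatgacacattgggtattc
Miat: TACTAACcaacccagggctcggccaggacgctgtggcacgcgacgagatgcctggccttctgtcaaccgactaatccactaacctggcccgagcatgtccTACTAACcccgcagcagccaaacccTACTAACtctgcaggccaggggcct

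The Malat1 tract is followed by 292 annotated bases, whereas the annotated Neat1 transcript ends with its tract. The letters AAAAAGCAAAA, which the tracts of Malat1 and Neat1 share, occur on the RNA strand of the longest transcript of 179 of the 15353 genes kept (1.17%). A run of at least 10 A occurs in 3000 of them (19.5%), among them Malat1 with 12 and Snhg14 with 17. TACTAAC occurs in 8.36% of the genes kept, and 2 genes, Miat being one, hold at least 6 copies. These are matches of letters on the RNA strand only, and no site was tested.

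Library totals ran from 24840981 counts in m61 to 48825783 in m49, with a median of 36252983, and 3 counts, taken as the floor, correspond to 0.0619 to 0.133 CPM. The lowest count behind any value of the 6 genes was 344, for Neat1 in m61, so none was near the floor. Striatal projection neuron markers were found in every library, with all 12 kept and a summed level of 2639 CPM in m74 to 6086 CPM in m44. The score of that list fell into separate clusters of libraries, so no relation to it is given. The m61 library stood apart: it had the fewest genes with a count above 0 (20524, against up to 24952), the most counts from the mitochondrial genome (7.21%, against as few as 2.90%) and the lowest length measure, and results that rest on it are given with and without it. The labels name no sequencing batch, so no relation could be repeated within batches.

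The length measure of a library is a difference of medians: the log2 deviation of the longest 10% of genes kept minus that of the shortest 10%, by the length of their joined exons, with the 6 RNAs left out. It was lowest in m61 (−0.63), m83 (−0.46), m74 (−0.42) and m101 (−0.22), near 0 in m49 (−0.10) and m44 (−0.07), and highest in m89 (0.23), m73 (0.24), m47 (0.38), m115 (0.43) and m57 (0.43). Here, a slope is the change in log2 CPM for a rise of 1 in that measure. By edgeR's quasi-likelihood test with Benjamini-Hochberg adjustment over all genes, 32.9% of the genes kept had a slope past an adjusted p of 0.05, 18.0% upward and 14.9% downward. Against that background 2 of the 6 RNAs passed, Malat1 and Snhg14, both upward. None passed downward, and none did so at an unadjusted p of 0.05 or by DESeq2's Wald test; Miat and Dlx6os1 reached an unadjusted p of 0.05 upward. The median slope of the 6 was 0.77, against 0.03 over all genes kept. All 6 are long, in deciles 7 to 10 of exon length, and the median slopes of their own length classes ran from 0.16 to 0.61. Of the 6, 4 lay above the median of their own class and the others below it.

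**Figure D1:**
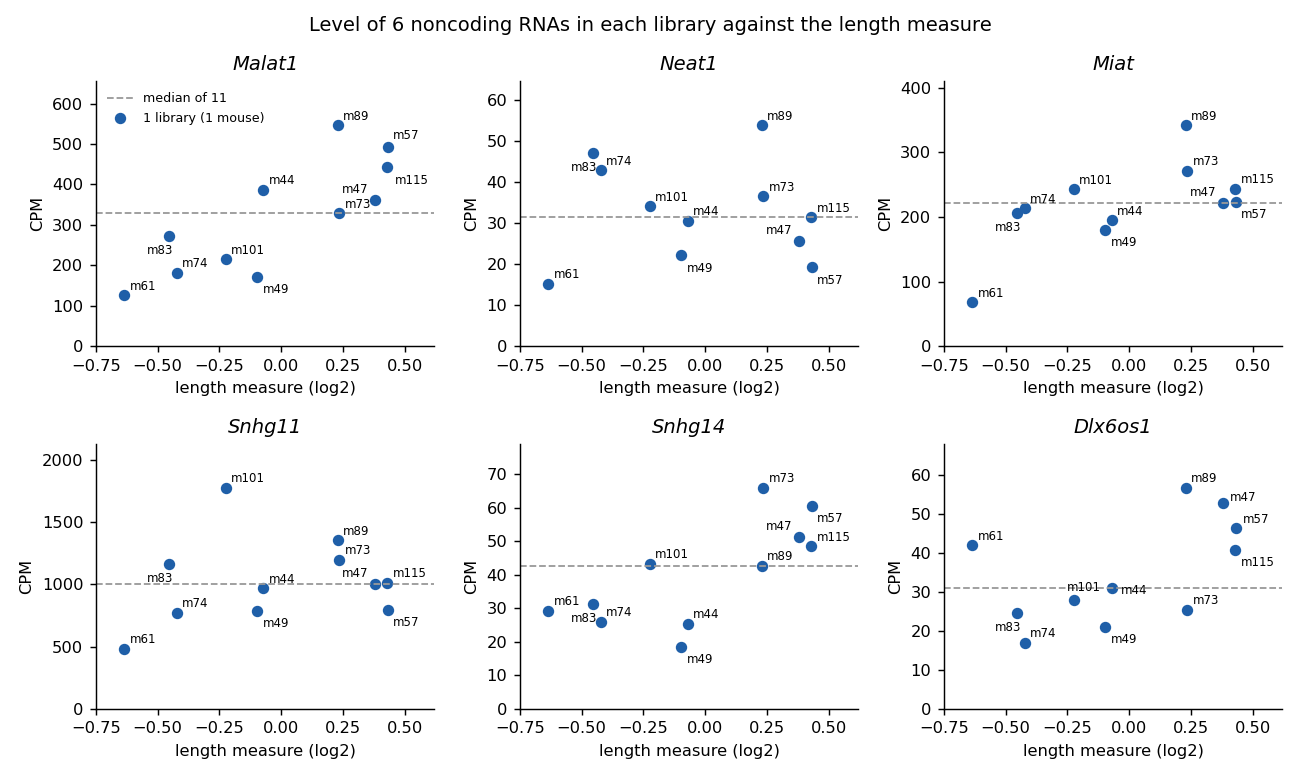
Level of each RNA in CPM (linear axes from 0) against the length measure of the library (log2); each point is 1 library from 1 mouse and the dashed line is the median of 11. Malat1 has 126 CPM in m61 and 547 CPM in m89 and climbs to the right, Neat1 does not, and m61 is the lowest point for Malat1, Neat1, Miat and Snhg11.

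Malat1 (ENSMUSG00000092341, chr19:5795690-5802672, minus strand, a lincRNA of 1 exon and 6983 bases) rose along the length measure. In order of that measure its level was 126 CPM in m61, 274 in m83, 181 in m74, 215 in m101, 171 in m49, 387 in m44, 547 in m89, 329 in m73, 361 in m47, 443 in m115 and 494 in m57. Its levels in the 5 libraries of lowest measure lay below those in the other 6 without overlap. Its slope was 1.46 ± 0.29 (SE; quasi-likelihood adjusted p = 0.0019), and 3.19% of the genes in its length class, whose median slope was 0.25, had a higher one. Classed by longest transcript instead, Malat1 falls in the longest 10% of genes, where the median slope was 0.66 and 7.75% were higher. The level and the measure correlated with r = 0.83 and rho = 0.78 over the 11 libraries (permutation adjusted p = 0.0144 and 0.0337), where 31.4% of all genes passed by r and 24.5% by rho, and r was 0.71 without m61 and m57. Without m61 alone the slope was 1.21 (quasi-likelihood adjusted p = 0.0107) and r was 0.75 (permutation adjusted p = 0.0559), so the slope stayed past the threshold and the correlation did not.

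Neat1 (ENSMUSG00000092274, chr19:5824708-5845478, minus strand, 1 exon, 20771 bases) lies 22036 bases from Malat1 and showed no such relation. Counts are per gene and do not separate its short polyadenylated form from the long form. In order of the length measure its level was 15.2 CPM in m61, 47.2 in m83, 42.9 in m74, 34.1 in m101, 22.1 in m49, 30.6 in m44, 53.9 in m89, 36.5 in m73, 25.6 in m47, 31.4 in m115 and 19.2 in m57. High and low levels occurred at both ends of the measure. The slope was −0.08 ± 0.41 (SE; quasi-likelihood adjusted p = 0.899), while the genes of its length class, the longest 10%, had a median slope of 0.61 and 94.4% of them a higher one. That class rests on all 20771 annotated bases. Which form these poly(A) libraries counted is not known, so the length class of Neat1 is uncertain. The correlation was r = 0.01 and rho = −0.15 (permutation adjusted p = 0.979 and 0.793), and neither sign was stable to leaving out a library: without m61 the slope was −0.53 and r −0.42, and without m83 the slope was 0.19.

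The pair was compared within each library as a ratio, chosen after the values had been seen. The log2 ratio of Malat1 to Neat1 was lowest in m74 (2.07) and highest in m57 (4.65), with a median of 3.15. It correlated with the length measure with r = 0.78 and rho = 0.86 (permutation adjusted p over 15 ratios = 0.0286 and 0.0165), and r was 0.87 without m61 and m57. The r stayed between 0.74 and 0.85 when single libraries were left out, but the adjusted p was below 0.05 without m61, m44 or m73 and above it in the other 8 cases (0.0205 to 0.110 over all 11). The log2 ratio of Neat1 to Miat fell along the measure, with −2.12 in m83 as its highest value and −3.50 in m57 as its lowest (r = −0.85, rho = −0.84, permutation adjusted p = 0.0136 and 0.0165), and lost the threshold without m47 or m57. No other of the 15 ratios had both adjusted p-values below 0.05. Frmd8, a protein-coding gene beside the pair, had a slope of −0.29 that did not pass (quasi-likelihood adjusted p = 0.177).

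**Figure D2:**
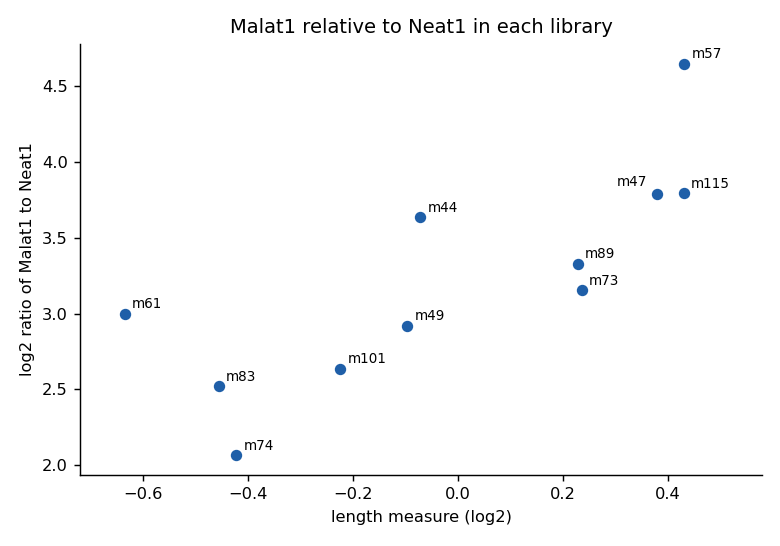
Log2 ratio of Malat1 to Neat1 (vertical axis, not starting at 0) against the length measure (log2) in the 11 libraries, 1 point each. The ratio runs from 2.07 in m74 to 4.65 in m57, and m61, at 3.0, lies above m83, m74 and m101.

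Miat (ENSMUSG00000097767, chr5:112213228-112229395, minus strand, 7 exons in its longest transcript, 9293 exonic bases) was low in 1 library. Its level was 68.1 CPM in m61, 180.4 CPM in the next lowest library, m49, and 342 CPM in m89, with a median of 222 CPM. The other 10 libraries lay between 180.4 and 342 CPM, all well above m61. The slope of 0.82 ± 0.33 did not pass (SE; quasi-likelihood adjusted p = 0.0735), and it was 0.30 without m61 (quasi-likelihood adjusted p = 0.302). The r of 0.63 passed (permutation adjusted p = 0.0434) and the rho of 0.60 did not (permutation adjusted p = 0.143). That r lost the threshold in 8 of the 11 cases with 1 library left out (all but m49, m101 and m57) and was 0.42 without m61. Exons of Gm26953 face 24.3% of the Miat exons on the other strand, but Gm26953 itself had at most 0.709 CPM.

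Snhg11 (ENSMUSG00000044349, chr2:158375638-158386145, plus strand, 8521 exonic bases) was the most abundant of the 6, rank 71 of all genes kept by CPM. The annotation files it as protein coding, although its name is that of a small nucleolar RNA host. It had 483 CPM in m61, its lowest library, and 1776 CPM in m101, with a median of 1004 CPM, and the second highest library, m89, had 1355 CPM. Its slope of 0.28 ± 0.37 did not pass (SE; quasi-likelihood adjusted p = 0.603), 59.3% of its length class had a higher one, and it was −0.20 without m61 (quasi-likelihood adjusted p = 0.673). The correlation with the measure was r = 0.31 and rho = 0.24 (permutation adjusted p = 0.501 and 0.647). The nearest gene downstream, Ralgapb, rose along the measure (slope 0.55 ± 0.11, SE; quasi-likelihood adjusted p = 0.00173).

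Snhg14 (ENSMUSG00000100826, chr7:59307924-59975759, minus strand, 15 annotated transcripts with 26093 exonic bases) rose along the length measure. In order of the measure it had 29.2 CPM in m61, 31.1 in m83, 26.0 in m74, 43.2 in m101, 18.5 in m49, 25.3 in m44, 42.7 in m89, 65.9 in m73, 51.2 in m47, 48.5 in m115 and 60.6 in m57. All 5 libraries of highest measure lay above the other 6 except m101, which was just above m89. Its slope was 1.03 ± 0.29 (SE; quasi-likelihood adjusted p = 0.0142), with 21.0% of the genes in its length class higher. It stayed past the threshold when each library was left out in turn, and was 1.12 without m61 (quasi-likelihood adjusted p = 0.0194). The r of 0.68 and rho of 0.66 did not pass (permutation adjusted p = 0.0659 and 0.0923). With the GC measure, defined below, as a covariate the slope was 0.34 (quasi-likelihood adjusted p = 0.573), so the call does not hold beside it.

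Genes around Snhg14 in the imprinted Prader-Willi and Angelman region moved in both directions. Ube3a, a ubiquitin ligase gene whose paternal copy is silent in neurons, rose with a slope of 1.13 ± 0.22 (SE; quasi-likelihood adjusted p = 0.00161). Its 20626 exonic bases place it in the longest 10% of genes, which enter the length measure and of which 58.2% rose. Ube3a had 51.3 to 74.1 CPM in the 6 libraries of low measure and 108 to 129 CPM in the 5 of high measure, with no overlap. The 2 genes face each other over 1803 exonic bases (6.91% of Snhg14), and reads of one may be counted for the other, since the sources used here do not say whether counting used the strand. Snrpn, which lies 6736 bases from Snhg14 and encodes a splicing protein, fell with a slope of −0.71 ± 0.13 (quasi-likelihood adjusted p = 9.72e-04), as did Ndn, with −0.47 ± 0.11 (quasi-likelihood adjusted p = 0.00618). A230103L15Rik, a transcript inside a Snhg14 intron on the same strand, fell more steeply: it had 82.5 CPM in m61 and 12.4 CPM in m57, and a slope of −1.72 ± 0.30 (quasi-likelihood adjusted p = 8.10e-04).

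Dlx6os1 (ENSMUSG00000090063, chr6:6820189-6871592, minus strand, 5173 exonic bases) carries a second identifier in the annotation that had no count in any library and was not used. It had 16.9 CPM in m74, the lowest, and 56.7 CPM in m89, the highest, with a median of 31.0 CPM. Unlike the other 5 it was above its median in m61, with 42.0 CPM. The slope of 0.73 ± 0.33 did not pass over all libraries (SE; quasi-likelihood adjusted p = 0.106), and it was 1.31 without m61 (quasi-likelihood adjusted p = 0.00523). With the GC measure as a covariate, over all libraries, it was 0.06 (quasi-likelihood adjusted p = 0.940). The correlation was r = 0.54 and rho = 0.50 (permutation adjusted p = 0.177 and 0.250), and r was 0.79 without m61 (permutation adjusted p = 0.0407). Dlx6, which lies opposite, had a slope of −0.49 ± 0.24 and Dlx5, the homeobox gene next to it, one of 0.12 ± 0.19, and neither passed (quasi-likelihood adjusted p = 0.134 and 0.652). Among 10 genes of the Dlx family and of GABA synthesis, Gad2 (0.74 ± 0.19, quasi-likelihood adjusted p = 0.00891) and Sp9 (0.52 ± 0.19, quasi-likelihood adjusted p = 0.0455) rose (20% of the list, against 18.0% of all genes) and none fell, also at an unadjusted p of 0.05 and by DESeq2. The count that rose was 0 with the GC covariate, 1 with DESeq2 size factors or no filter on low counts, and 1 to 3 with single libraries left out (1 without m115, m49, m47, m101, m44, m89, m83 or m74), and 1 fell without m74.

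**Figure D3:**
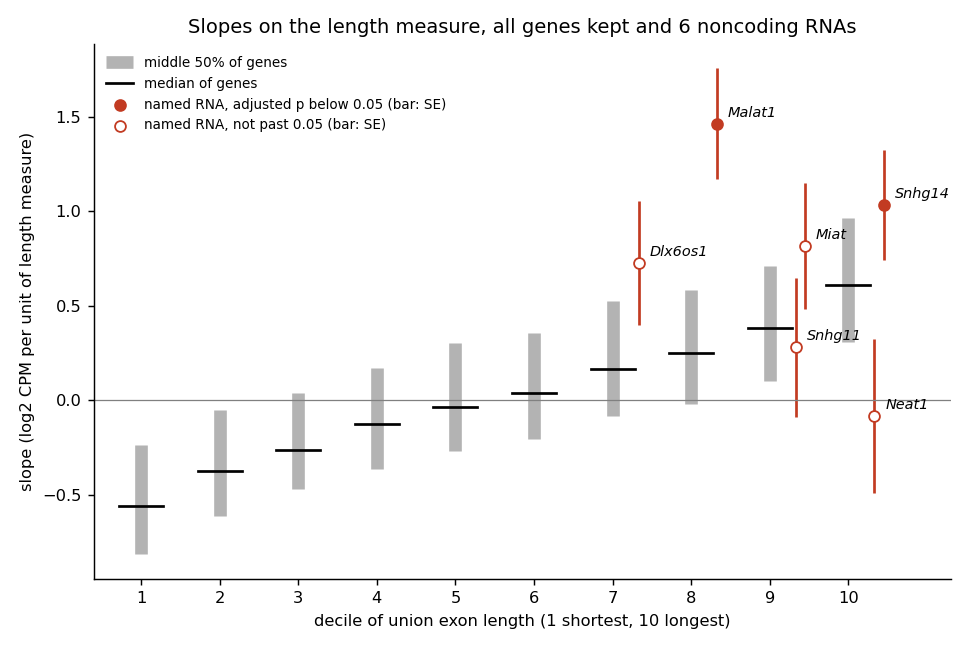
Slope on the length measure (log2 CPM per unit) by decile of joined exon length; grey bars span the middle 50% of the genes kept, black lines are medians, and points with bars are the 6 RNAs with their standard errors, filled where the adjusted p is below 0.05. Medians climb from −0.56 in the shortest decile to 0.61 in the longest; Malat1 (1.46) stands above its decile and Neat1 (−0.08) below its own.

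Per length, the order of the median levels was Snhg11 (117.8 CPM per kb), Malat1 (47.2), Miat (23.9), Dlx6os1 (5.99), Snhg14 (1.64) and Neat1 (1.51). Snhg11 was above Malat1 and Malat1 above Miat in 11 of 11 libraries, although their ranges over libraries overlapped. Miat was above Dlx6os1 in 10 of 11, the exception being m61 (7.33 and 8.12 CPM per kb). Dlx6os1 and Snhg14 did not overlap, whereas Snhg14 was above Neat1 in 6 of 11 only, so the last pair was not separated. The place of Snhg14 depended on its length: over its longest transcript, of 6861 bases, its median was 6.22 CPM per kb, above Neat1 in 11 of 11 libraries and below Dlx6os1 (6.72) in 8 of 11. The values of Neat1 are over all its 20771 annotated bases, and its short form was not counted apart.

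All 6 RNAs varied more between libraries than most genes. Their biological coefficient of variation, the spread beyond counting error, was 0.45 for Malat1, 0.39 for Snhg14, 0.38 for Dlx6os1, 0.37 for Neat1, 0.36 for Miat and 0.33 for Snhg11. The median over all genes kept was 0.20, with 0.30 over the 963 genes of long noncoding biotypes, and between 8.70% (Malat1) and 19.4% (Snhg11) of all genes had a larger spread. With the length measure in the fit the spread was 0.28 for Malat1 and 0.29 for Snhg14, but 0.39 for Neat1 and 0.34 for Snhg11. The spread of Miat was 0.19 without m61. The lowest library was m61 for 4 of the 6 (Malat1, Neat1, Miat and Snhg11), where 25.5% of all genes kept had their lowest level. The highest was m89 for 4 of the 6 (Malat1, Neat1, Miat and Dlx6os1), where 5.48% of all genes had their highest. Over the 963 genes of long noncoding biotypes, these shares were 25.4% for m61 and 10.7% for m89. Relative to the median deviation of its own length class in m61, Malat1 deviated by −1.23 on the log2 scale, Miat by −1.5 and Dlx6os1 by 0.58.

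**Figure D4:**
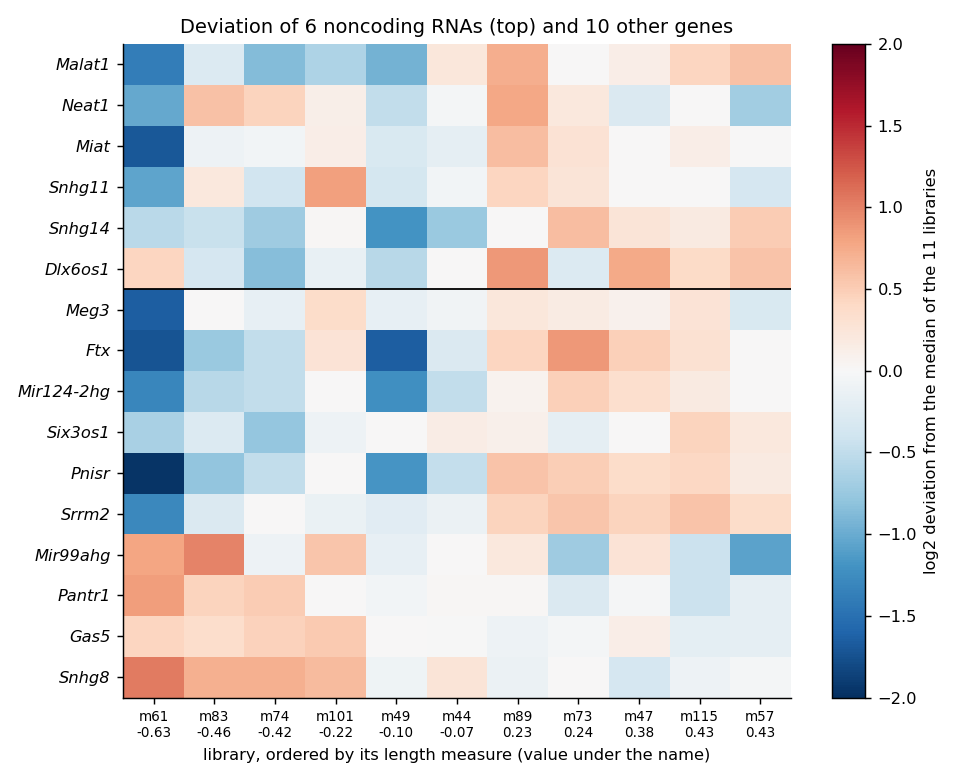
Log2 deviation of log2(CPM + 0.5) from the median of the 11 libraries (colour, red above and blue below), for the 6 RNAs (top rows) and 10 other noncoding RNA or nuclear speckle protein genes; columns are libraries in order of their length measure. The m61 column is blue for Malat1 (−1.39), Neat1 (−1.02), Miat (−1.70) and Snhg11 (−1.06) and red for Dlx6os1 (0.43), Snhg8 and Pantr1.

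The 6 levels were also set against 15 further measures of the libraries, 96 relations in all with the length measure, each adjusted over all genes kept. The GC measure is the same difference between the genes of highest and lowest GC content, taken from the longest transcript of each gene. It ran from −0.50 in m47 to 0.49 in m74 and was below 0 in all 5 libraries of highest length measure. Snhg14, whose longest transcript holds 31.0% GC (0.0456% of the genes kept have less), fell along the GC measure (r = −0.82, rho = −0.81, permutation adjusted p = 0.0330 for both), which 13.1% of all genes passed by r and 18.8% by rho. That r was between −0.88 and −0.80 with single libraries left out and lost the threshold without m47 or m73. Dlx6os1, with 38.2% GC, had r = −0.70, which did not pass (permutation adjusted p = 0.0870), and the median r of the tenth of genes lowest in GC was −0.68. Malat1 (42.5% GC), Snhg11 (44.8%), Neat1 (47.3%) and Miat (55.1%) did not pass. As to the A runs shown above, in the length class of Malat1 the median slope was 0.31 for 395 genes with a run of at least 10 A and 0.23 for 1142 genes without; in that of Snhg14 it was 0.62 for 630 genes with and 0.60 for 906 without.

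Miat fell where microglial markers rose. Its level and the microglial score correlated with r = −0.83 and rho = −0.80 (permutation adjusted p = 0.0218 and 0.0365), a relation that 16.3% of all genes passed by r and 16.9% by rho, and r was −0.67 without m61 (permutation adjusted p = 0.133). Snhg14 passed by rho (−0.79, permutation adjusted p = 0.0405) and not by r (−0.67, permutation adjusted p = 0.0886), but its r was −0.80 on library totals without scaling (permutation adjusted p = 0.0289). All 10 microglial markers were kept, with a summed level of 402 CPM in m47 to 694 CPM in m61, and 4 of them are among the shortest 10% of genes that enter the length measure; the part of either in these relations was not tested. In bulk tissue, fewer cells of a type and less RNA per cell cannot be told apart. Malat1 fell along the score of 12 ribosomal protein genes (r = −0.82, rho = −0.82, permutation adjusted p = 0.0177 and 0.0336) and that of 12 nuclear genes of oxidative phosphorylation (r = −0.84, rho = −0.77, permutation adjusted p = 0.0147 and 0.0462), to which 23.7% and 21.2% of all genes were related by r, and 15.8% and 18.4% by rho. Without m61 the 2 values were −0.72 and −0.76 and did not pass (permutation adjusted p = 0.0833 and 0.0616). Miat passed against the ribosomal score by r (−0.75, permutation adjusted p = 0.0369) and not by rho (permutation adjusted p = 0.0666), and lost that call on library totals without scaling (−0.64, permutation adjusted p = 0.0654) and in 6 of the 11 cases with 1 library left out (m115, m73, m44, m61, m89 or m83). The shortest 10% of genes include 4 of these ribosomal and 6 of these respiratory genes. No relation of the 6 to library total, mitochondrial share, or the scores of neurons, cortical neurons, oligodendrocytes, their precursors, astrocytes, vessels, ependyma or subventricular neuroblasts passed by r or rho after adjustment (0 of 60, with 5 by r and 4 by rho at an unadjusted permutation p of 0.05). Few of all genes passed for these measures: 0.293% by r and 0.0651% by rho for the mitochondrial share, 0.104% by r for neurons, 0.0326% by r for oligodendrocytes and none for the others.

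Among the 6 themselves, Miat and Snhg11 were closest (r = 0.80, rho = 0.75), followed by Miat and Neat1 (r = 0.72, rho = 0.55), Miat and Malat1 (r = 0.72, rho = 0.67) and Snhg11 and Neat1 (r = 0.70, rho = 0.64). None of the 15 pairs passed when each gene of the pair was adjusted against all others, while 5 passed at an unadjusted permutation p of 0.05 by r; the larger adjusted p was 0.0653 for Miat with Malat1 and 0.167 for Miat with Snhg11. Of all genes, 11.4% passed by r against Malat1, 5.43% against Snhg14, 3.84% against Miat, 0.0326% against Snhg11, 0.0261% against Neat1 and none against Dlx6os1; by rho, 1.90% passed against Malat1 and 0.352% against Miat. Without m61 the 4 r values above were 0.59, 0.54, 0.56 and 0.50.

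The genes whose level followed each RNA most closely over the 11 libraries, out of all genes kept, were of different kinds. For Malat1 they were Gm43445 (r = 0.96), Wdr78 (0.96), Ktn1 (0.94), Rbm33 (0.94) and Inpp4a (0.93). For Neat1 they were Zfp692 (r = 0.93), Kmt5c (0.93), Klk1b22 (0.91), Trmt1 (0.90) and Gm20605 (0.90), none of which passed for a slope on the length measure. For Snhg14 they were Unc80 (r = 0.97), which encodes part of a sodium leak channel complex, Scn1a (0.97), a sodium channel gene, Ints6 (0.97), Cadps (0.97), a gene of vesicle release, and Gm38393 (0.96), which shares 27 exonic bases with Snhg14. All 5 of these rose along the length measure. Unc80, Scn1a, Ints6 and Cadps are in the longest 10% of genes and so enter that measure. Of that class, 58.2% rose. For Miat they were Gm35339, Ubap1l, Gm42860, Fnbp4 and A330023F24Rik (r = 0.97 for each), for Snhg11 Ubp1 (0.97), Stx3 (0.95), N4bp2l1 (0.94), Dync1i2 (0.94) and Ccdc62 (0.93), and for Dlx6os1 Rfx4 (0.93), Etv1 (0.91), Ccng2 (0.91), Cdk19 (0.89) and Thsd7a (0.89). These values describe the closest of many genes and carry no test.

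Genes listed for proteins of nuclear speckles and paraspeckles, measured here as RNA only, moved upward along the length measure where they passed. Of 18 genes listed for nuclear speckles, 11 rose (61.1%, against 18.0% of all genes) and none fell (14 and 0 at an unadjusted p of 0.05 and also by DESeq2). Their median slope was 0.65, against 0.03 over all genes. Of the 18, 5 are long enough to enter the measure, and most lie in deciles 8 to 10 of exon length. Over all genes of deciles 8, 9 and 10, 26.0%, 38.1% and 58.2% rose, with median slopes of 0.25, 0.38 and 0.61. Pnisr, a speckle protein rich in serine and arginine, rose most (27.0 CPM in m61 and 159 CPM in m89; slope 1.65 ± 0.34, quasi-likelihood adjusted p = 0.00221). Srrm2, a scaffold of speckles, and Son, its partner, rose by 1.17 ± 0.21 and 0.84 ± 0.15 (quasi-likelihood adjusted p = 9.83e-04 and 9.11e-04). Srsf11 (1.28 ± 0.33) and Luc7l2 (1.23 ± 0.23) also rose (quasi-likelihood adjusted p = 0.00895 and 0.00138). Celf4, the most abundant of the list, had −0.01 ± 0.11. Whether Celf4 and the other listed proteins, Sf1 among them, lie in speckles was not tested here. Without m61, 7 rose; with the GC measure as a covariate, 1 did. The branch point binding factor Sf1, whose letters Miat repeats, had 150.5 CPM in m61 to 234 CPM in m83 and a slope of 0.08 ± 0.14 that did not pass (quasi-likelihood adjusted p = 0.720).

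Of 14 paraspeckle protein genes, 6 rose (42.9%, against 18.0% of all genes) and none fell, also at an unadjusted p of 0.05 and by DESeq2 (median slope 0.33). Without m61, 5 rose, and with the GC covariate 2 did. Of the 14, 3 are long enough to enter the length measure, Cpsf6 and Matr3 among them. In the longest 10% of genes, 58.2% rose. Zc3h6 (1.17 ± 0.21), Cpsf6 (1.06 ± 0.25), Matr3 (0.70 ± 0.20), Tardbp (0.64 ± 0.13) and Sfpq (0.53 ± 0.12) passed (quasi-likelihood adjusted p = 8.47e-04, 0.00491, 0.0169, 0.00223 and 0.00460). Sfpq and Nono, which bind Neat1 as a pair, differed: Nono had 130.3 CPM in m57 to 176 CPM in m49 and a slope of −0.18 ± 0.12 (quasi-likelihood adjusted p = 0.266). Neat1 itself, the scaffold, had the slope of −0.08 given above.

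Of the small nucleolar RNA hosts other than Snhg11 and Snhg14, some fell along the measure. Among 14 kept, none rose and 6 fell (42.9%, against 14.9% of all genes), the same counts as at an unadjusted p of 0.05 and by DESeq2, with a median slope of −0.47, and 6 fell without m61 as well; 3 fell with the GC covariate. Gas5, a growth arrest transcript and the most abundant, had 82.5 CPM in m115 to 136 CPM in m101 (slope −0.59 ± 0.13, quasi-likelihood adjusted p = 0.00405). Snhg8 fell most, with 36.7 CPM in m61 and 13.9 CPM in m47 (slope −1.11 ± 0.15, quasi-likelihood adjusted p = 2.18e-04). Snhg6, Epb41l4aos, Snhg12 and Zfas1 also fell, by −1.0, −0.65, −0.64 and −0.56. Snhg17 had the highest slope, 0.17 ± 0.27, which did not pass (quasi-likelihood adjusted p = 0.656). These hosts are short: 7 of the 14, Snhg8 and Snhg6 among them, belong to the shortest 10% of genes and so enter the length measure. Most of the 14 lie in deciles 1 to 3 of exon length, whose median slopes were −0.56, −0.38 and −0.26. Over all genes of deciles 1 and 2, 43.1% and 33.5% fell, with a smaller share in decile 3. The 42.9% of the hosts was thus close to the share in the shortest 10% of genes.

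Other noncoding RNAs of the brain moved both ways. Of 28 kept, 4 rose (14.3%, against 18.0% of all genes) and 3 fell (10.7%, against 14.9%), with a median slope of 0.15, and 10 of the 28 enter the length measure. The count of those that fell was 1 without m115 and 5 without m74, and with the GC covariate 1 rose and 5 fell. Ftx, a regulator of Xist, rose with a slope of 1.54 ± 0.44 (9.84 CPM in m61 to 61.9 CPM in m73; quasi-likelihood adjusted p = 0.0159). Mir124-2hg, a host of the neuronal miR-124, and Six3os1, which lies opposite the homeobox gene Six3, rose by 1.15 ± 0.29 and 0.78 ± 0.19 (quasi-likelihood adjusted p = 0.00741 and 0.00669). Mir99ahg fell although it is in the longest 10% of genes (slope −1.16 ± 0.35, quasi-likelihood adjusted p = 0.0206), and Pantr1 fell by −0.87 ± 0.15 (quasi-likelihood adjusted p = 6.73e-04). Meg3, an imprinted RNA and the most abundant of the list, had 1081 CPM in m61, 2745 CPM in the next lowest library, m57, and 4380 CPM in m101; its slope of 0.61 ± 0.34 did not pass (quasi-likelihood adjusted p = 0.191). Over all 963 genes of long noncoding biotypes, 83 rose (8.62%, against 18.0% of all genes) and 72 fell (7.48%, against 14.9%). The median slope of the 963 was −0.0027. Among the 137 of them with a median of at least 10 CPM, 27 rose (19.7%) and 25 fell (18.2%), shares closer to those of all genes.

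**Figure D5:**
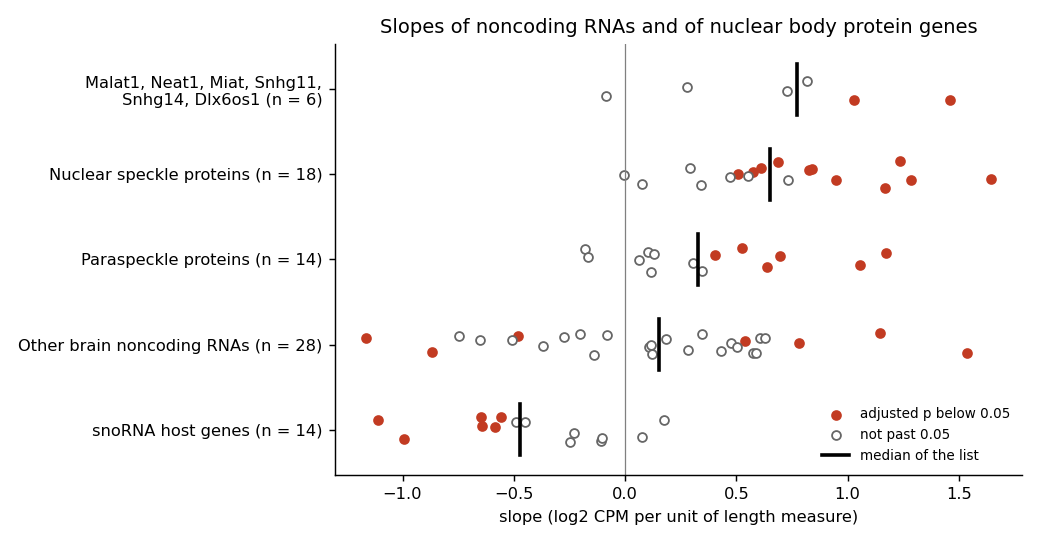
Slope on the length measure (log2 CPM per unit) of each gene in 5 lists, 1 point a gene, filled where the adjusted p is below 0.05; black bars are list medians and heights within a list are random. The medians run from 0.77 for the 6 RNAs and 0.65 for nuclear speckle proteins to −0.47 for snoRNA host genes.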

How the data were processed

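The deposited table holds raw counts per gene, which the authors left without normalization. The genome was mm10 and the tools were HTSeq 0.6.1, TopHat2 2.0.14, Bowtie2 2.1.0 and bcl2fastq 2.17.1.14, per the submitters' processing notes. Per the labels' protocols, tissue was punched from frozen sections of 300 µm, and 200 ng of RNA went through poly-T beads, a stranded TruSeq kit and 12 PCR cycles. Overlapping and antisense genes are uncertain, since neither the annotation release nor the use of strand in counting is given in the sources used here. Identifiers were matched to GENCODE M21 (52403 of 52550; the 147 others held 0.0112 to 0.0214% of a library).

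The deposited counts were expressed as CPM on library totals scaled with TMM factors (0.908 to 1.06; edgeR 4.0.16 under R 4.3.3). Genes with at least 1 CPM in 3 libraries, a median count of at least 10 and a match were kept. Slopes on the length measure came from edgeR's quasi-likelihood test over all 11 libraries. Pearson and Spearman correlations used log2(CPM + 0.5) and two-sided permutation tests of 100000 draws, whose smallest p is 1e-05. Both were adjusted by Benjamini-Hochberg over all genes kept. Spread is the biological coefficient of variation without sharing between genes. Each library stands for 1 mouse of unknown genotype, so p-values measure relations over these 11 libraries only. Counts without molecular identifiers are not independent molecules, and the floor of 3 counts covers counting error only. The slope and permutation steps were tested on simulated data. Python 3.11.15, numpy 2.4.6, pandas 2.3.3, scipy 1.17.1 and DESeq2 1.42.0 served the remaining steps.

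The 6 genes, the gene lists and the length measure were chosen with earlier results of these data known. Named genes are the 6, for each the 5 of highest r, genes that overlap them or are nearest, and up to 6 of each list (the most abundant, highest and lowest slope, and others past the threshold). Other scalings, DESeq2, other filters, other length definitions, a GC covariate and libraries left out in turn were tried as alternatives. The ratios between the 6 genes and the list counts without single libraries were added after the data had been seen.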

Additional observations from a re-analysis of the deposited data

How the results depend on the processing

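No paired analysis was possible because the labels give no groups and no replicate numbers. Of 213 values recomputed under another scaling, test, filter, pseudocount, length definition or covariate, 193 held their direction and their side of the threshold, or stayed close to the main value where there was no test. DESeq2's Wald test brought Miat past the threshold (slope 0.82, adjusted p = 0.0231), and library totals without scaling, which moved the median of all genes by −0.14 to 0.08 on the log2 scale, did so for the correlations of Snhg14 with the length measure (r = 0.72, permutation adjusted p = 0.0497) and the microglial score (r = −0.80, 0.0289), while that of Miat with the ribosomal score lost it (r = −0.64, 0.0654). The GC measure as a covariate changed most: 2623 genes passed, 1374 upward and 1249 downward, Snhg14 no longer passed (0.34, adjusted p = 0.573), and the slope of Neat1 was 0.28 (adjusted p = 0.827). The slope of Dlx6os1 was 0.06 (quasi-likelihood adjusted p = 0.940), against 0.73 without the covariate. With that covariate 1 of the other brain noncoding RNAs rose and 5 fell, none of the Snhg14 locus rose and 1 fell, and none of the Dlx and GABA genes rose. The cause of these changes was not tested. Malat1 stayed past the threshold in all of these settings (1.33 to 1.79, highest adjusted p = 0.0199).

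With single libraries left out, slopes ran from 1.21 to 1.63 for Malat1, −0.53 to 0.19 for Neat1, 0.30 to 0.94 for Miat, −0.20 to 0.50 for Snhg11, 0.92 to 1.12 for Snhg14 and 0.54 to 1.31 for Dlx6os1. The slope of Neat1 was positive without m47 (0.03), m83 (0.19), m74 (0.10) or m57 (0.16). The r with the length measure ran from 0.75 to 0.87 for Malat1, −0.42 to 0.20 for Neat1, 0.42 to 0.68 for Miat, −0.086 to 0.53 for Snhg11, 0.65 to 0.80 for Snhg14 (past the threshold without m49) and 0.44 to 0.79 for Dlx6os1; for Neat1 it was −0.017 without m73 and −0.11 without m89. Counts of genes past the threshold ran from 4052 to 5225, 2289 to 2855 upward and 1724 to 2585 downward. The lowest count behind the 6 genes was 344, and the precision of these relations is set by the number of libraries.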
